A study of Mus with 8 samples.

Results

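C/EBPβ binding was followed through the start of adipogenesis in Prep1 down-regulated (P) 3T3-L1 cells. Sites were taken from the C/EBPβ peak list of P cells at day −2 and from that of P cells 4 h after induction. A day −2 peak that overlapped a 4 h peak by 1 bp or more was called kept, a day −2 peak without such a partner was called lost, and a 4 h peak without one was called gained. The lists held 28366 of the 42729 peaks of the series.

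3T3-L1 is a mouse preadipocyte line. P cells had been infected with a lentivirus carrying a hairpin against Prep1 and selected in puromycin, and control (C) cells with a virus carrying a scrambled hairpin. P cells carried the first of the Prep1 hairpins used in the study, and effects of that hairpin on other genes cannot be told apart from effects of Prep1. At day −2 the cells had not received inducers. Inducers were added to cells that had been confluent for 2 days. At 4 h they had been given insulin at 1 μg/ml, the phosphodiesterase inhibitor IBMX at 0.5 mM and dexamethasone at 1 μM in medium with fetal bovine serum, whereas growth medium held bovine calf serum. Each of the 4 conditions had 1 ChIP library and 1 input library. No test between conditions was therefore possible, and intervals given here are 95% intervals for counting error only. Induction, time in confluent culture, the change of serum and the efficiency of a single immunoprecipitation cannot be told apart. In the names of single peaks the hour is written as 0 at day −2 and as 5 at 4 h, which differs from the labelled 4 h. The lists hold no expression values, so neither the cell type nor the level of Prep1 was checked here.

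C/EBPβ is a basic leucine zipper transcription factor and one of the first to act when preadipocytes meet the adipogenic hormones. It binds enhancers near genes of the fat cell program, and Pparγ and C/EBPα, which maintain that program, come after it. Prep1 is a homeodomain transcription factor of the TALE class. Dexamethasone acts through the glucocorticoid receptor, IBMX raises cAMP and insulin acts through its receptor, and signals of all these pathways reach C/EBPβ or the enhancers to which it binds.

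The compared P libraries were of nearly the same depth. The fragment length was taken as the width of the narrowest peak of a list, which was 163 bp at day −2 and 159 bp at 4 h. With it, the read depth implied by the recovered input background was 7.85 M at day −2 and 7.82 M at 4 h. A peak's strength is given in the following as fold enrichment at the summit, a deposited value. It sets ChIP fragments against the local background of the input. Strength is also given as the number of ChIP fragments at the summit, which was recovered from fold enrichment and −log10 p together. The weakest peaks held 8 fragments at day −2 and 6 at 4 h.

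The first question was how many of the sites bound before induction were still listed after it. Under the 1 bp rule nearly every day −2 site was kept. Of 1653 day −2 peaks, 1631 (98.7%, 98.0 to 99.1) overlapped a 4 h peak and 22 (1.33%, 0.881 to 2.01) were lost. The 4 h list was much longer, with 26713 peaks or 16.2 (15.4 to 17.0) per day −2 peak. Of these, 1628 (6.09%, 5.81 to 6.39) overlapped a day −2 peak and 25085 (93.9%, 93.6 to 94.2) were gained. The number of lost sites depended on the rule, with 71 lost when summits had to lie within 100 bp and 436 when the overlap had to cover 50% of both peaks. The kept share depended on the length of the 4 h list, and it was 43.4% when only the 1653 strongest 4 h peaks were taken.

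Pairing was almost always 1 to 1. Each kept day −2 peak overlapped a single 4 h peak, and 3 of the 4 h peaks overlapped 2 day −2 peaks. The closest calls around the 1 bp rule were few. The smallest overlaps of kept pairs were 34, 105 and 106 bp, at sites with a 4 h fold enrichment of 5.24, 9.99 and 11.8. The gained peaks lying closest to a day −2 peak were separated from it by 115, 184 and 203 bp and had a fold enrichment of 8.87, 4.99 and 6.99. At kept sites the position of maximal signal hardly moved. The summits of a pair lay 14 bp apart in the median (quartiles 6 and 26 bp). They fell within 10 bp of each other in 669 pairs (41.0%), within 50 bp in 1476 (90.5%) and within 100 bp in 1582 (97.0%). Peak width grew from a median of 209 bp to 317 bp, and the 4 h peak was the wider one in 1568 of 1631 pairs (96.1%).

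Kept sites were next compared in strength. Most became stronger, and very few became weaker by 2-fold. The median fold enrichment was 9.96 at day −2 and 25.4 at 4 h. The median log2 ratio of 4 h to day −2 was 1.29 (quartiles 0.74 and 1.78), a 2.44-fold rise. Fold enrichment was higher at 4 h in 1529 of the 1631 kept sites (93.7%) and lower in 102. At least 2-fold higher values were found at 1033 sites. This is 63.3% (61.0 to 65.6) of the kept sites, which are all the sites that could be compared. At least 4-fold higher values were found at 279 sites (17.1%) and at least 2-fold lower ones at 2 sites (0.123%). Day −2 sites that fell under the 4 h threshold were counted as lost and do not enter here, so falls are counted incompletely.

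**Figure D1:**
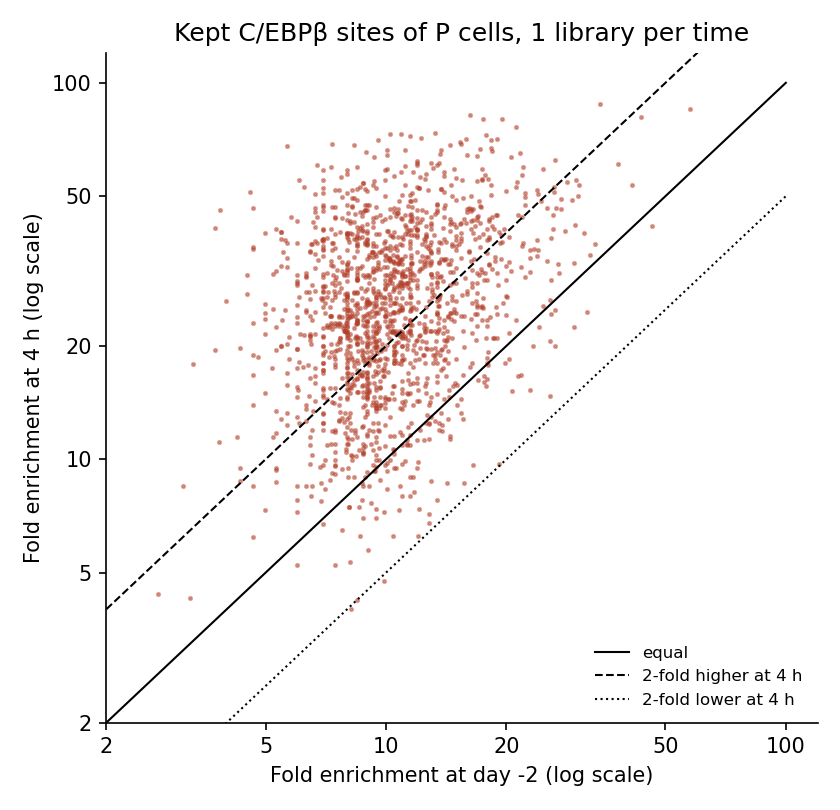
Fold enrichment of the 1631 kept C/EBPβ sites of P cells at day −2 (x axis) and at 4 h (y axis), both on log scales, 1 point per site and 1 library per time point. Lines mark equality and 2-fold differences. Of the points, 1033 lie at or above the dashed line and 2 at or below the dotted one.

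Fragments at the summit gave a similar picture. Their median went from 19 to 54, with a median log2 ratio of 1.37 (0.93 and 1.82). They were higher at 4 h in 1581 sites, equal in 12 and lower in 38. Fragments were at least 2-fold higher at 1173 sites (71.9%) and at least 2-fold lower at 1 site (0.0613%). Input background at the same sites had a median log2 ratio of 0.00 (−0.45 and 0.64), so the median rise in fold enrichment lay in the ChIP fragments. At single sites the background did move. It was at least 2-fold higher at 4 h in 254 sites and at least 2-fold lower in 201.

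The order of the sites was only partly preserved. Across kept sites, Spearman's rho between the time points was 0.27 for fold enrichment and 0.47 for fragments, a description over 1631 sites that share libraries and a common threshold. Ratios were also described by day −2 strength. The day −2 list was divided by −log10 p into 4 classes of nearly equal size. In the weakest class the median number of fragments went from 14 to 44, a log2 ratio of 1.65, and fold enrichment was at least 2-fold higher in 77.2% of 394 kept sites. In the strongest class it went from 30 to 68, a log2 ratio of 1.10, and 47.2% of 417 kept sites were at least 2-fold higher. A site must reach the threshold at both times to be called kept, and the day −2 value that sets the class is also the denominator of the ratio, so that counting noise alone gives larger ratios in weak classes. These ratios are a description, and no difference between weak and strong sites is read from them. The absolute level after induction kept the order of the classes, at 44, 46, 56 and 68 fragments.

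The strongest kept site after induction lay on chromosome 4 from 97770830 to 97771253 (mm9). It had 28 fragments and a fold enrichment of 17.5 at day −2, and 160 fragments and a fold enrichment of 80.4 at 4 h. Its fragments thus rose 5.71-fold (counting interval 3.81 to 8.87), and C cells had a 4 h peak there with a fold enrichment of 38.1 and no day −2 peak. On chromosome 2 from 105268303 to 105268614 lay the site with the highest day −2 fold enrichment among the named ones. It went from 57.6 to 85.1, and from 86 to 152 fragments, a 1.77-fold rise (1.35 to 2.33). On chromosome 11 from 81820295 to 81820674 fold enrichment went from 34.4 to 87.9, and fragments from 68 to 143 (2.10-fold, 1.56 to 2.85). On chromosome 2 from 152567080 to 152567702 fold enrichment went from 13.3 to 73.7, and fragments from 39 to 155 (3.97-fold, 2.78 to 5.80). In fragments, the first and the last of these sites rose by more than the median kept site (2.58-fold) and the other pair by less. The fifth, on chromosome 10 from 117540327 to 117540973, had 150 and 249 fragments and a fold enrichment of only 27.0 and 31.2. Input background there was 9.63-fold above that of the genome at day −2 and 15.2-fold at 4 h. The named sites were picked by their 4 h −log10 p, which rests on the 4 h fragments. Such picking favours high fragment ratios, and the counting intervals make no allowance for it.

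At the 3 sites named for the largest fold enrichment ratio, input background was lower at 4 h. Input background is the denominator of fold enrichment, so picking sites by extreme ratios favours such changes by construction. The same holds for fragments, which are in the numerator, and the counting intervals make no allowance for the picking. The largest ratio was on chromosome 2 from 72204568 to 72204947, where fold enrichment went from 5.65 to 67.9, a 12.0-fold difference. Fragments rose there from 16 to 133 (8.31-fold, 4.93 to 15.0) while the input background fell from 4.22 to 2.11 times the genome background. The next was on chromosome 2 from 151741864 to 151742327, where fold enrichment went from 3.84 to 46.0 and fragments from 26 to 81 (3.12-fold, 1.98 to 5.05). The input background was 12.7 times the genome background at day −2 and 1.69 times at 4 h. On chromosome 1 from 170292570 to 170293366, fold enrichment went from 4.58 to 51.4, fragments from 22 to 102 (4.64-fold, 2.90 to 7.72) and input background from 8.44 to 2.17 times the genome background. In all 3 sites the fragments rose by less than the fold enrichment. The part of the background in the order of the ratios was not tested.

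The smallest ratios among well-supported sites showed the opposite change of background. On chromosome 2 from 7167659 to 7168131, fold enrichment was 19.2 at day −2 and 9.74 at 4 h. Fragments were 34 and 38, a ratio of 1.12 (0.685 to 1.83), and the input background was 1.72 and 6.51 times the genome background. On chromosome 8 from 58748553 to 58748757, fold enrichment was 12.0 and 6.24, with 26 and 24 fragments (ratio 0.923, 0.507 to 1.67). On chromosome X from 69575840 to 69576096 it was 12.8 and 6.79, with 18 and 33 fragments (1.83, 1.00 to 3.46). Their background went from 2.61 to 6.51 and from 1.00 to 8.68 times the genome background. None of these sites had a fragment ratio whose counting interval lay below 1.

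Lost sites were few and weak. Their fragments ranged from 11 to 21 with a median of 14, and 21 of 22 lay below the median of 19 of the kept sites at day −2. Their fold enrichment ranged from 5.31 to 12.6 (median 8.83). The strongest, on chromosome 13 from 75639115 to 75639298, had a −log10 p of 21.9. From the weakest to the strongest class of day −2 sites, 10, 8, 4 and 0 were lost. The others named by strength lay at chr8:54834254-54834444, chr2:131176504-131176686, chr13:23613717-23613927 and chr6:122495421-122495614, with 18, 18, 17 and 16 fragments.

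Lost sites were spread over 12 chromosomes. The nearest 4 h summit was 10.6 kb away in the median (0.805 to 141 kb). It lay within 1 kb for 2 of them and within 10 kb for 10. In C cells, 6 of the 22 (27.3%, 13.2 to 48.2) overlapped a 4 h peak and 1 overlapped a day −2 peak. The strongest lost site was among the 6, with a fold enrichment of 7.02 in C cells at 4 h and 12.1 in P cells at day −2.

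Gained sites were then described by strength. As a class they resembled the day −2 sites before induction and were weaker than the kept sites after it. Both lists were cut at the same −log10 p of 5, which kept sites had to pass at both times. This limits the values that each class can take, so nothing further is read from the resemblance. The median gained site had 20 fragments (quartiles 15 and 29) and a fold enrichment of 10.5. Kept sites had 19 (15 and 25) fragments at day −2, and kept 4 h peaks had 54 (38 and 74) and a fold enrichment of 25.3. Of the gained sites, 14236 (56.8%, 56.1 to 57.4) held at least the 19 fragments of the median day −2 peak. At least the 54 fragments of the median kept 4 h peak were found at 1210 (4.82%, 4.57 to 5.1).

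**Figure D2:**
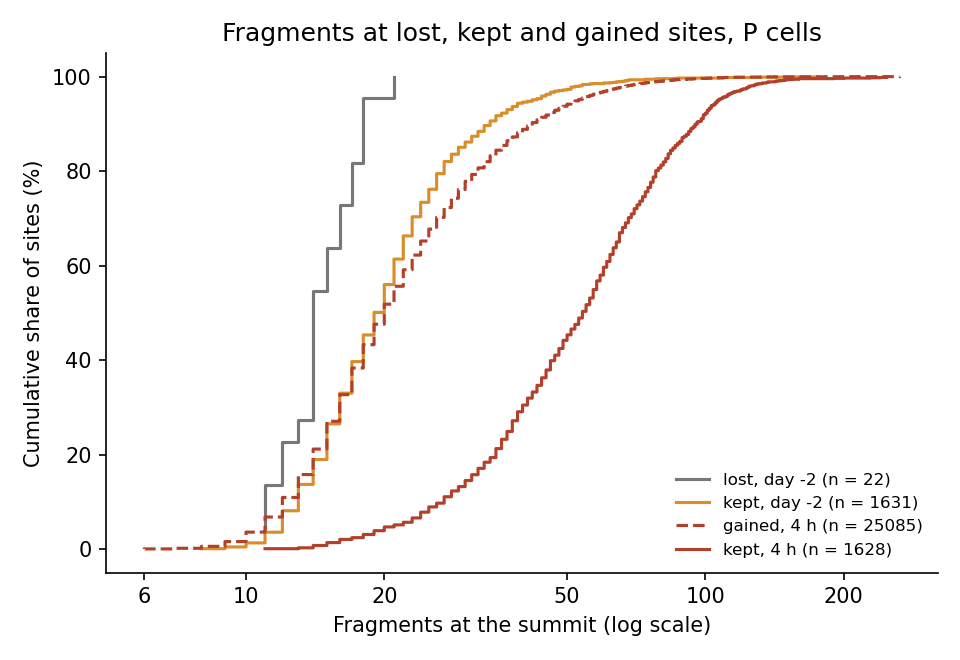
Cumulative share of sites (y axis, %) by the number of ChIP fragments at the summit (x axis, log scale) for the 22 lost and 1631 kept sites at day −2 and the 25085 gained and 1628 kept peaks at 4 h in P cells. The curve of gained sites runs close to that of kept sites at day −2, and kept sites at 4 h lie to the right of both.

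The strongest 4 h peaks were mostly kept ones, and their share fell steadily with rank. Among the 100 strongest 4 h peaks by −log10 p, 78 (78.0%, 68.9 to 85.0) overlapped a day −2 peak. The share was 57.0% of the next 400 peaks, 41.2% of the 500 after them, 28.9% of the following 1000, 15.2% of the following 3000, 4.52% of the following 5000 and 0.868% (0.738 to 1.02) of the remaining 16713 peaks. Which class was the larger among strong peaks depended on the level chosen. Of the 3701 4 h peaks whose −log10 p reached 50, 2598 (70.2%, 68.7 to 71.6) were gained, as were 364 of the 823 that reached 100 (44.2%, 40.9 to 47.6).

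**Figure D3:**
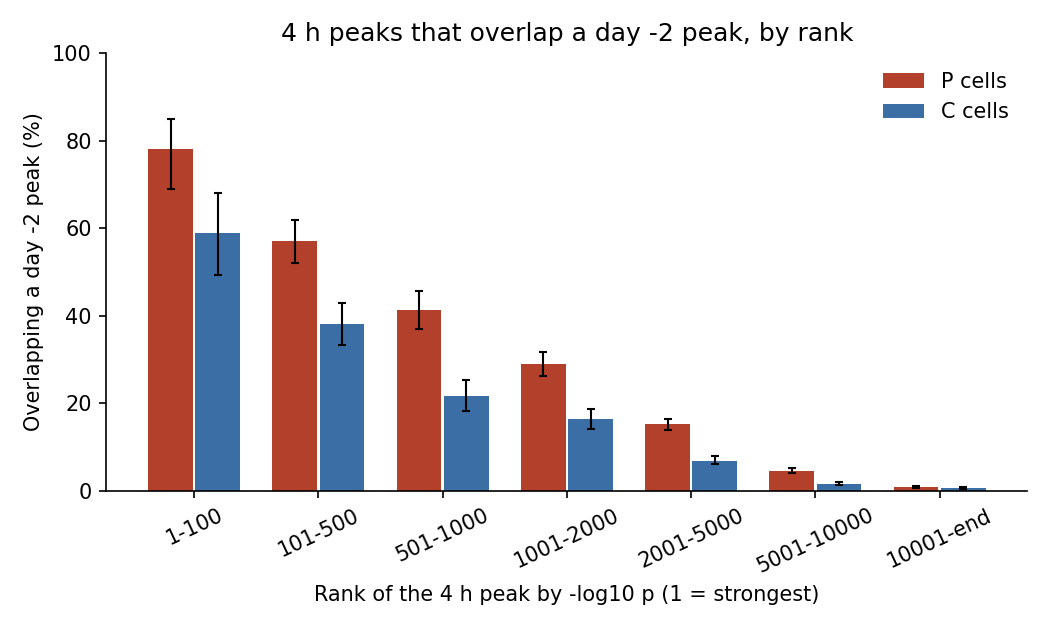
Share of 4 h peaks that overlap a day −2 peak of the same cells (y axis, %) by rank of the 4 h peak (x axis), for P cells and C cells, with bars as shares and error bars as 95% Wilson intervals. In P cells the share runs from 78.0% of the first 100 peaks to 0.868% beyond rank 10000, and in C cells from 59.0% to 0.539%.

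The strongest gained site lay on chromosome 15 from 58586595 to 58587183, with 134 fragments and a fold enrichment of 67.4 at 4 h, 658 kb from the nearest day −2 summit. On chromosome 6 from 17228322 to 17228788 a gained site had 117 fragments and a fold enrichment of 70.6, at 76.2 kb from a day −2 summit. On chromosome 19 from 47412208 to 47412543 another had 123 fragments and a fold enrichment of 64.4, at 17.9 kb. At chr10:10168907-10169232 the values were 103 fragments, 71.1 and 128 kb, and at chr16:94529209-94529990 they were 109 fragments, 67.1 and 1320 kb. Their input background was between 1.00 and 2.17 times the genome background. All 5 sites were also bound in C cells at 4 h, at a fold enrichment of 21.7, 16.1, 29.1, 57.6 and 12.0, and none was in the C list at day −2.

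Many gained sites of lower strength had no overlapping peak in the C list at 4 h, which was shorter (13525 peaks) and misses sites under its threshold. Of all gained P sites, 10050 (40.1%, 39.5 to 40.7) overlapped a C peak at 4 h, against 1484 of 1628 kept 4 h peaks (91.2%, 89.7 to 92.4). Strength went along with this share. It was 92.3% (91.3 to 93.3) for the 2598 gained sites whose −log10 p reached 50 and 11.9% (10.6 to 13.4) for the 2125 with a value under 10. The C list at day −2 held 274 of the gained P sites (1.09%) and 518 of the kept ones (31.8%).

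The position of gained sites relative to sites already bound was examined next. A gained site lay at a median of 313 kb from the nearest day −2 summit (quartiles 93.1 and 876 kb, 25076 sites on chromosomes with a day −2 peak). Of these sites, 138 (0.550%) lay within 1 kb, 1187 (4.73%, 4.48 to 5.0) within 10 kb, 6579 (26.2%, 25.7 to 26.8) within 100 kb and 19528 (77.9%, 77.4 to 78.4) within 1000 kb. Most new binding was thus not next to a site bound before. It was nevertheless closer than an even spread over the span of the lists would give. The parts of chromosomes 1 to 19 and X lying within 1, 10, 100 and 1000 kb of a day −2 summit made up 0.125%, 1.21%, 10.3% and 55.2% of the span covered by the lists. The gained share was 4.41, 3.92, 2.56 and 1.41 times these values. The span was not limited to sequence that allows unique alignments, which may raise these ratios. The median distance of the span from a day −2 summit was 841 kb.

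**Figure D4:**
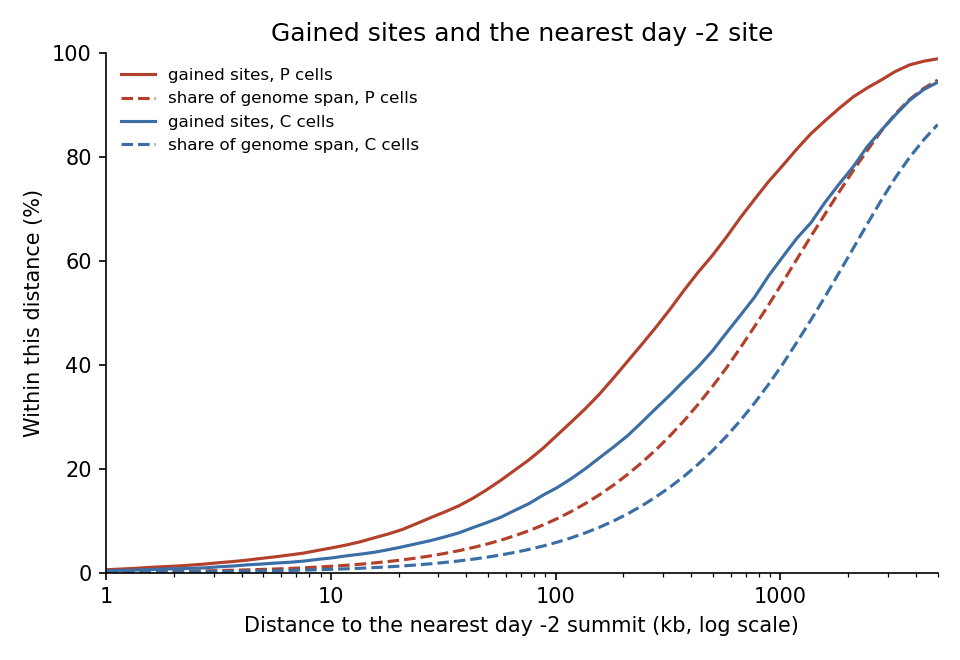
Share of gained sites (solid lines) and of the genome span (dashed lines) lying within a given distance of a day −2 summit of the same cells (x axis, kb, log scale) for P cells and C cells. At 100 kb the solid P line is at 26.2% and the dashed P line at 10.3%.

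The distance of weaker gained sites to strong gained sites was also measured. When the 1653 strongest gained sites took the place of the day −2 sites, the remaining 23424 gained sites lay at a median of 293 kb from them, against 319 kb from a day −2 site. Within 10 kb there were 5.42% (5.14 to 5.72) and 4.67% (4.41 to 4.95) of them. The strong gained sites come from the same list as the sites measured, and no level for an even spread was computed for them. Nothing is therefore read from this order. Day −2 sites themselves lay at a median of 216 kb from the nearest other day −2 site, and 7.08% within 10 kb. Strong gained sites were somewhat nearer to day −2 sites than weak ones. The median was 202 kb for the 364 sites whose −log10 p reached 100 and 239 kb for the 2233 from 50 up to 100, against 338 kb for the 11181 between 10 and 20 and 339 kb for the 2124 under 10. Within 100 kb lay 30.5% (26.0 to 35.4) of the first class and 24.5% (22.7 to 26.4) of the last.

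Among strong gained sites, those nearest to a day −2 summit were chr6:100109068-100109551 at 0.561 kb, chr6:128788306-128788567 at 0.576 kb and chr15:61141070-61141362 at 0.578 kb. Their fold enrichment was 22.6, 35.8 and 24.4. Those farthest away were all on chromosome X. They were chrX:50479159-50479567, chrX:50492773-50493250 and chrX:45472470-45473019, at 14700, 14600 and 11100 kb from a day −2 summit, with a fold enrichment of 21.5, 25.3 and 27.3.

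Gained neighbours were also counted from the day −2 sites. Within 100 kb, 1560 of 1653 day −2 sites (94.4%, 93.2 to 95.4) had a gained site, with a median of 5 and at most 23. Within 10 kb, 786 (47.5%, 45.2 to 50) had one. The same shares around other positions are not given here. Of the 100 kb windows described below, 83.3% of those with a day −2 site and 39.0% of the others held a gained site. Kept sites with a gained neighbour within 10 kb rose like those without. The median log2 ratio of fold enrichment was 1.29 in 777 and 1.28 in 854 sites.

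Stretches with many gained sites were counted as well. The genome span was cut into 26331 windows of 100 kb. Windows with a day −2 site (1464) held 2.72 gained sites on average and the others 0.848. Of the 1154 windows with 5 or more gained sites, 285 (24.7%) held a day −2 site, against 1464 of all 26331 windows. Crowded windows thus held a day −2 site more often than windows in general, although 869 of them held none. The most crowded window, on chromosome 2 from 148200001 to 148300000, held 15 gained sites with a fold enrichment of 5.34 to 33.4 (median 15.2), at 35.9 to 76.4 kb from the nearest day −2 summit. Windows with 14 gained sites followed at chr14:66300001-66400000, chr16:24500001-24600000, chr6:36800001-36900000 and chr6:129100001-129200000. None of the 5 windows had a day −2 site of P cells. C cells gained 11, 12, 2, 4 and 11 sites in them, in this order, and had 1 day −2 site in the first. The windows were chosen for their number of P sites, and C cells gained 12734 sites in all against 25085, so nothing is read from the lower C numbers.

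The list grew on every chromosome. The number of 4 h peaks per day −2 peak was between 12.8 (10.6 to 15.7) on chromosome 11 and 27.7 (18.5 to 43.6) on chromosome X. These were the only chromosomes whose interval did not include the value of 16.2 of all chromosomes. Chromosome X went from 24 to 665 peaks, and its 4 h density of 4.00 peaks per Mb was still the lowest, against 14.9 on chromosome 19 and 10.1 over the whole span. All 24 day −2 sites of chromosome X were kept. Kept sites rose on each chromosome, with a median log2 ratio of fold enrichment between 0.97 on chromosome 17 and 1.46 on chromosome 6. In C cells the ratio of peak numbers was lowest on chromosome 19 at 12.5 (9.07 to 17.7) and highest on chromosome 7 at 24.1 (15.9 to 38.4), with 13.2 (10.1 to 17.4) on chromosome 11 and 22.9 (12.6 to 46.5) on chromosome X.

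**Figure D5:**
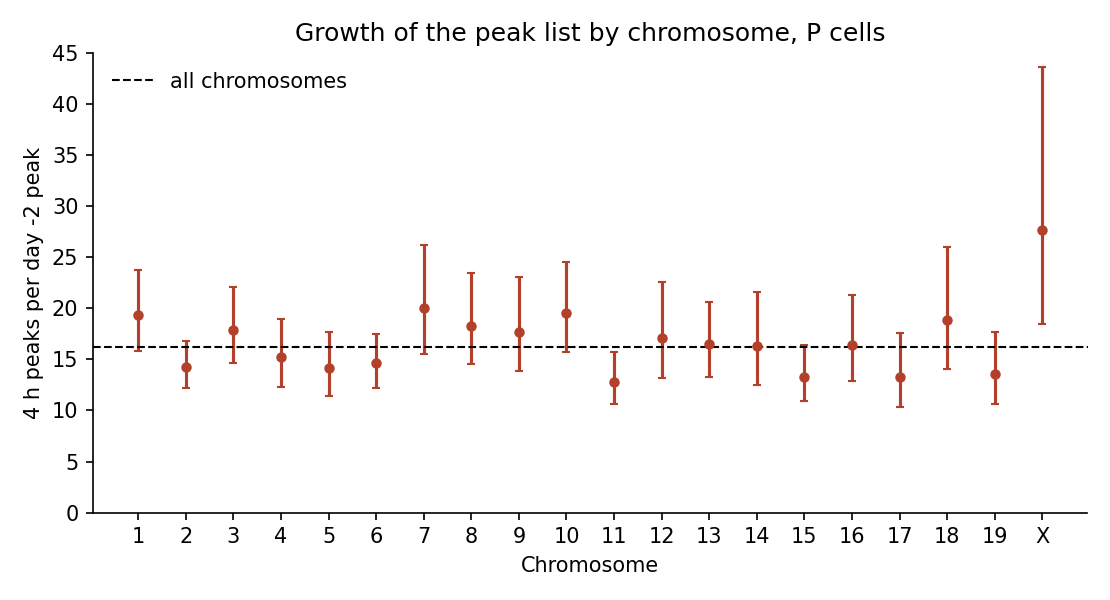
Number of 4 h peaks per day −2 peak (y axis) on each chromosome (x axis) in P cells, with 95% intervals for counting error and the value of 16.2 over all chromosomes as a dashed line. Chromosome X lies highest at 27.7 and chromosome 11 lowest at 12.8.

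Finally, the response of P cells was set beside that of C cells, whose lists held 838 and 13525 peaks. With 1 library for each condition, a difference between the cell types could not be tested. The ratio of list lengths was 16.1 (15.1 to 17.3) in C cells and thus close to that in P cells. C cells lost 47 day −2 sites (5.61%, 4.24 to 7.38), against 1.33% of P cells. This order depended on the pairing rule. With an overlap covering 50% of both peaks it reversed, and 73.6% of day −2 sites were kept in P cells against 86.5% in C cells. The weakest of 4 classes of the C list lost 29 of 199 sites and that of the P list 10 of 404. Among the first 100 4 h peaks, 59.0% (49.2 to 68.1) overlapped a day −2 peak in C cells against 78.0% in P cells. C lists were shorter. The fragment length taken from their narrowest peaks was 215 bp at day −2 against 164 bp at 4 h, whereas the P libraries were nearly alike in this respect.

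Kept sites rose in both cell types. In C cells 791 kept sites had a median log2 ratio of fold enrichment of 1.07 (quartiles 0.62 and 1.51), and 430 of them (54.4%, 50.9 to 57.8) were at least 2-fold higher. By fragments, 44.8% were at least 2-fold higher and 0.126% at least 2-fold lower. Different sites enter these medians. At the 507 sites kept in both cell types the median log2 ratio was 1.25 in P cells and 1.15 in C cells. The ratio was the larger one in P cells at 284 sites (56.0%), and the median difference was 0.11. Fragments at these sites gave 1.32 and 0.95, and input background gave 0.00 and −0.39. The genome-wide background of C cells, in fragments per position, went from 0.623 to 0.476 as the fragment length went from 215 to 164 bp. Relative to it, input background at the 791 kept C sites had a median log2 ratio of 0.02, against −0.37 without this scaling. The fragment ratio was larger in P cells at 371 of the 507 sites (73.2%), and the part of the fragment length in this was not tested. Gained C sites lay at a median of 677 kb from a day −2 site of C cells. The C list at day −2 was shorter, and the median distance of the span from its sites was 1431 kb. The gained share within 10 kb exceeded that of the span 4.48-fold in C cells, against 3.92-fold in P cells.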

How the data were processed

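C/EBPβ ChIP and input libraries of P and C cells were sequenced by the authors on an Ion Torrent instrument, filtered with FASTX-Toolkit and aligned to mm9 with Bowtie 0.12.8, keeping unique alignments. Duplicates were removed, and mapped reads were then down-sampled to equal numbers with SAMtools 1.3.1. The authors called peaks with MACS2 2.0.10.20131028 against input at a −log10 p of 5, with 1 ChIP and 1 input library per list as labelled. Whether immunoprecipitations were pooled is not given in the sources used here. The deposited columns used were the ratio of ChIP to local input background at the summit (fold enrichment), the −log10 p, the −log10 q and the positions. Sites just under the threshold are missing from a list, so lost and gained refer to lists. Equal read numbers do not equalise the efficiency of immunoprecipitation.

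The lists were handled in pandas 2.3.3 and numpy 2.4.6 under Python 3.11.15. Each day −2 peak was paired with the overlapping 4 h peak of highest −log10 p. Fragments and input background at a summit were solved jointly from both strength columns: MACS2 adds 1 to numerator and denominator, and its p is a Poisson tail (computed with scipy 1.17.1). In 100% of peaks an integer matched the deposited −log10 p within a relative error of 0.002. Depth used a genome size of 2.7e+09 bp. The steps were tested on simulated data. Distances run from summit to summit, and the genome span of a chromosome runs to its last peak end in any list. Shares have Wilson intervals and ratios of numbers exact Clopper-Pearson ones (statsmodels 0.14.6). Figures were drawn with matplotlib 3.10.9. Coordinates are counted from 1.

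Members, classes and alternatives were chosen with earlier results of these data known. Named peaks are the 5 strongest kept, gained and lost ones by −log10 p (at 4 h for the first), the 3 largest and 3 smallest ratios of fold enrichment among kept sites with a −log10 p of at least 20 at either time, the 3 nearest and 3 farthest gained sites with at least 50, and the windows with most gained sites. The windows were extended from 3 to 5 because 4 tied. That extension and the use of the strongest gained sites as anchors were chosen after the data were seen. Gene names, annotation and sequences were not used here, because the gene table at hand was of another build.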

Additional observations from a re-analysis of the deposited data

How the results depend on the processing

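Over 14 results and 12 settings, 105 values were computed, of which 25 moved beyond an interval, or by over 1.5 times for numbers of peaks, and 80 did not. The interval was the counting interval for shares and a binomial interval over sites for medians. The latter treats sites of the same libraries as independent and served only as a yardstick. No value changed sign, but numbers of peaks, shares and distances cannot be negative. Only the median log2 ratios of P and C cells could have changed sign, so nothing is read from this for the other results. A q-value under 0.01, chromosomes 1 to 19 and X alone, leaving out chromosome 10, pairing by the nearest summit and edge to edge distances moved none. Some of these settings hardly change the input. Chromosomes 1 to 19 and X held 1652 of 1653 day −2 peaks and 26696 of 26713 4 h peaks of P cells. Each kept day −2 peak of P cells had a single partner, so the choice of partner could not matter. A stricter overlap can only remove pairs. When the overlap had to cover 50% of both peaks, 73.6% of day −2 peaks were kept, 436 were lost, 95.4% of 4 h peaks were gained, the median log2 fold enrichment ratio was 1.16 with 57.9% of kept sites at least 2-fold higher, and gained sites lay at 302 kb with 6.27% within 10 kb. In C cells 86.5% were kept and 94.6% gained, so the order of the cell types in the kept share reversed. The median log2 ratio of width was 0.64 in P and 0.16 in C cells, whose part in this was not tested. With summits within 100 bp, 95.7% were kept and 71 lost in P cells and 91.9% kept in C cells. Taking only as many 4 h peaks as the day −2 list holds gave 43.4% kept, 56.7% gained, a median distance of 219 kb and 6.30% within 10 kb. Measured by −log10 p, the median log2 ratio was 1.83 and 80.0% were at least 2-fold higher, and with fragments they were 1.37 and 71.9%. A −log10 p of at least 10 gave a median distance of 334 kb in P and 839 kb in C cells and 96.5% of C sites kept, and a fold enrichment of at least 5 gave 322 kb and 731 kb, from shorter day −2 lists. No paired analysis was possible because each group has 1 library, and for the same reason no replicate could be left out.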

Other observations

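The 4 h peaks of P cells with the most fragments were not the most enriched ones. At least 176 fragments, the highest number of any day −2 peak, were found at 10 gained and 7 kept 4 h peaks. The input background at these gained peaks was between 66.6 and 180 times the genome background, and their fold enrichment was between 2.50 and 5.83. At the 7 kept peaks the background was between 15.2 and 124 times the genome background. Input background reached 8 times the genome background at 293 of the 25085 gained peaks (1.17%) and at 34 of the 1628 kept 4 h peaks (2.09%).

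The spacing of the gained sites of P cells was also measured. The nearest other gained summit was at a median of 12.9 kb (quartiles 3.79 and 36.7 kb), and it lay within 10 kb for 11118 of 25083 sites (44.3%). No value for an even spread is given, so no grouping is read from these numbers.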
